A study of Mus musculus with 8 samples.

Results

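The genes described here are the mouse endosomal Toll-like receptors Tlr3, Tlr7, Tlr8, Tlr9, Tlr11, Tlr12 and Tlr13, together with Unc93b1, which encodes the membrane protein that carries these receptors to the endosome. The 8 genes were given by name as a family. The rule that picks them uses no measured value, although the family was proposed with earlier results of these data known. A gene was measured through probe sets that the array annotation assigns to that gene alone, the brightest being used where there were several. By this rule 7 of the 8 genes had a value, each from 1 probe set, out of 19938 genes measured in all. Tlr11 had no probe set naming it alone and has no value here.

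Dendritic cells were sorted from marrow and spleen of 4 mice, and their RNA was hybridised to Affymetrix mogene 1.0 ST arrays, on which each probe set gathers probes along a gene. The marrow cells were labelled as myeloid dendritic cells and the splenic cells as classical dendritic cells, with 4 arrays per group and 1 array of each group from every mouse. All mice were CX3CR1-gfp/+ and 8 weeks old, so both groups carried 1 Cx3cr1 allele marked with green fluorescent protein. The labels name no treatment, and the markers used for sorting were not given in the sources used here.

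Toll-like receptors of this group sit in endosomes and meet nucleic acids or microbial proteins taken up by the cell. Tlr3 binds double-stranded RNA and signals through the adaptor Ticam1, whereas the other receptors of the group signal through Myd88. Tlr7 responds to single-stranded RNA and its breakdown products, Tlr9 to unmethylated CpG DNA, and Tlr13 to a bacterial ribosomal RNA sequence. What mouse Tlr8 responds to is less settled. Tlr11 and Tlr12 recognise profilin of protozoan parasites. These receptors leave the endoplasmic reticulum with Unc93b1, and several of them are cut by endosomal proteases before they signal. In the mouse spleen, Tlr3 is characteristic of the cDC1 subset of dendritic cells, Tlr7 of the cDC2 subset and of plasmacytoid cells, and Tlr9 of all of these.

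The stretches of DNA upstream of Tlr8 and Tlr3 are shown because these genes had the largest rise and the largest fall of the group. Both were read from RefSeq's GRCm38.p6 table, in which 6 of the 8 genes have a promoter entry, Tlr7 and Unc93b1 being the genes with none. For Tlr8 the 250 bases before the start are printed, chrX:167264330-167264579 on the minus strand. For Tlr3 only 30 bases around the single match are printed, chr8:45410457-45410486 on the minus strand, because the RefSeq gene reaches 695 bases further upstream than the start used in the table. Capitals mark letters that matched one of the patterns searched.
Tlr8: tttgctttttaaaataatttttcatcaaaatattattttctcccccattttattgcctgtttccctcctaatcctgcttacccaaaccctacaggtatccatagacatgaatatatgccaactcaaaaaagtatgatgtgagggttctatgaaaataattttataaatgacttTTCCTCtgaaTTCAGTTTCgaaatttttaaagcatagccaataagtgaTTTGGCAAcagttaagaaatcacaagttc
Tlr3: gactttactcaTTTTGCAAagaagataaag

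The patterns were searched on both strands of the 250 bases before each start. They were GAGGAA (found in PU.1 sites), GGAANNGAA (a composite of ETS and IRF factors), GAAANNGAA (interferon response elements), TGANTCA (AP-1) and TTGCNNAA (C/EBP). GAGGAA matched upstream of Tlr8, Tlr9, Tlr11 and Tlr13, and 23.3% of the 32851 promoters in the table hold a match. GAAANNGAA matched upstream of Tlr8 and Tlr11, against 7.13% of all promoters, and TTGCNNAA upstream of Tlr8 and Tlr3, against 9.56%. TGANTCA matched upstream of Tlr9, where 6.75% of promoters hold it, and GGAANNGAA, held by 6.99%, matched none of the 6. Letters of the different patterns did not overlap in the 2 stretches printed. A match is a string of letters and was not tested as a binding site.

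Across the arrays, median intensity lay between 125 and 135. Over all genes, log2 intensities correlated within a group with r between 0.991 and 0.996, and between groups with r between 0.968 and 0.976. Of 7 marker genes of classical dendritic cells, 4 fell in the marrow and none rose. Markers of other cells moved in both directions. All 10 neutrophil genes, 9 of 10 macrophage genes and 8 of 9 monocyte genes rose, as did 4 of 5 erythroid genes, and none of these genes fell. Of 9 B cell genes, 5 fell and 2 rose, and of 9 T and NK cell genes 5 fell and none rose. At the same threshold, a limma adjusted p under 0.05, 9.26% of all genes rose and 9.20% fell. In sorted bulk RNA, fewer cells of a type and less RNA per cell cannot be told apart, and this holds for every difference below.

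Bone marrow cells had much more Tlr8, somewhat more Tlr9 and Unc93b1, much less Tlr3 and slightly less Tlr12 than splenic cells. For Tlr7 and Tlr13 the difference did not pass the threshold. Thus 3 of the 7 measured genes were higher and 2 lower at a limma adjusted p under 0.05. Over all genes 9.26% were higher and 9.20% lower, 18.5% in all. The groups did not overlap for 5 of the 7, against 20.6% of all genes. The median log2 difference of the 7 genes was 0.34, and that of all genes was -0.0071. Intensities of different probe sets are not compared with each other, since probes differ in brightness for the same amount of RNA.

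**Figure D1:**
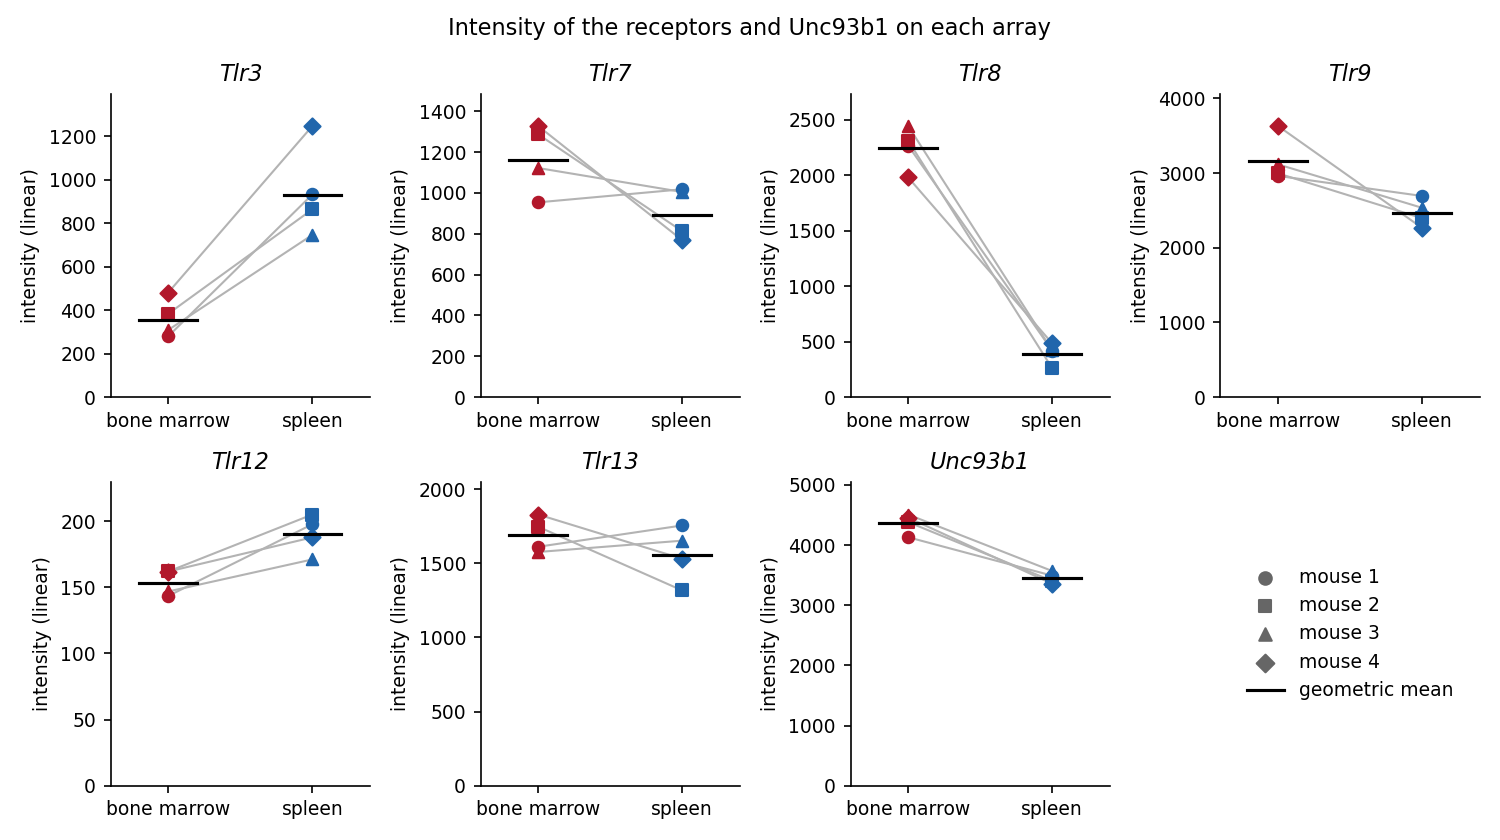
Linear intensity of each measured gene on each array, with bone marrow in red and spleen in blue. Each symbol is 1 mouse, grey lines join the arrays of a mouse, and black bars are geometric means of 4 arrays. Tlr8 spanned 1981 to 2444 in marrow against 261 to 485 in spleen, and Tlr3 spanned 280.2 to 481 against 746 to 1247.

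Among Tlr7, Tlr8 and Tlr13, Tlr8 separated the tissues most. Its intensity in bone marrow was 2267, 2312, 2444 and 1981 in mice 1 to 4, and in spleen 420.4, 261, 422 and 485. All marrow arrays lay far above the highest splenic array, and the splenic arrays varied more among themselves, with an SD of 0.39 on the log2 scale against 0.13 in marrow. The geometric mean was 2244 in bone marrow and 387 in spleen, a 5.80-fold rise (log2 difference 2.54 ± 0.16 SE, 95% interval 2.19 to 2.88, n = 4 per group, limma adjusted p = 1.4e-07). Within mice the rise ran from 4.09-fold in mouse 4 to 8.86-fold in mouse 2, which had the lowest splenic value.

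Between the tissues, the summed levels of myeloid markers were higher where Tlr8 was higher. The summed intensity of 9 monocyte genes was 26560.3 to 31864 in marrow against 10321 to 12721 in spleen. That of 10 macrophage genes was 22098 to 32077 against 3796 to 4439, and that of 10 neutrophil genes 20140.2 to 27693 against 1367 to 1639. The lowest single intensity was 66.9 in the monocyte list, 88.6 in the macrophage list and 35.6 in the neutrophil list. Without detection calls it is unknown whether such values lie above background. Within a tissue, none of these sums put the 4 arrays in the same order as Tlr8. In marrow the macrophage sum was 23543.5, 32077, 27994 and 22098 in mice 1 to 4. That sum was lowest in mouse 4 and next lowest in mouse 1, as Tlr8 was, but highest in mouse 2 rather than mouse 3. The marrow array lowest in Tlr8, that of mouse 4, had the lowest macrophage sum (22098) but the highest monocyte sum (31864). The splenic array lowest in Tlr8, that of mouse 2, had the lowest macrophage and monocyte sums (3796 and 10321) but the highest neutrophil sum (1639). The part of other cells in the Tlr8 difference was not tested.

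Tlr7, which lies next to Tlr8 on the X chromosome with no protein-coding gene between them in RefSeq, differed much less. Its intensity was 954, 1287, 1122 and 1328 in bone marrow and 1018, 812, 1005 and 768 in spleen. The groups overlapped, because mouse 1 had less Tlr7 in marrow than in spleen while the other 3 mice had more. The means differed 1.30-fold (log2 difference 0.38 ± 0.12 SE, 95% interval 0.11 to 0.65, n = 4 per group, limma adjusted p = 0.052), which did not pass the threshold. It passed after quantile normalization (adjusted p = 0.033), with the dimmest 40% of genes left out (0.040) and with an intensity trend in the variance (0.049). It also passed without bone marrow replicate 1 (0.016), spleen replicate 1 (0.039) or spleen replicate 3 (0.045). Of 8 cDC2 genes 3 were higher in marrow (Itgam, Clec10a and Mgl2), 3 lower (Esam, Cd4 and Clec4a4) and 2 did not pass. Over all genes 9.26% were higher and 9.20% lower. The summed intensity of the 8 was 17957 to 20116 in marrow against 9238 to 12636 in spleen. Their mean log2 intensity overlapped, at 9.80 to 9.99 against 9.64 to 10.01. The part of these cells in the Tlr7 values was not tested.

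Tlr13, the receptor of bacterial ribosomal RNA, did not differ beyond the spread between arrays. Intensity was 1612, 1747, 1577 and 1829 in bone marrow and 1756, 1317, 1653 and 1531 in spleen. The groups overlapped, with 2 mice higher in marrow and 2 higher in spleen. The log2 difference was 0.12 ± 0.10 SE (n = 4 per group, limma adjusted p = 0.55). Its 95% interval, -0.09 to 0.33, leaves room for a small rise or fall.

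Tlr9, the receptor of CpG DNA, was modestly higher in bone marrow. Intensity was 2963, 2996, 3117 and 3630.4 in bone marrow and 2694, 2396, 2535 and 2266 in spleen. All marrow arrays lay above all splenic arrays, and mouse 4 had both the highest marrow and the lowest splenic value. The rise was 1.28-fold (log2 difference 0.36 ± 0.09 SE, 95% interval 0.16 to 0.56, n = 4 per group, limma adjusted p = 0.013), and it was seen in 4 of 4 mice, from 1.10-fold in mouse 1 to 1.60-fold in mouse 4. B cells and plasmacytoid dendritic cells also express Tlr9. The summed intensity of 9 B cell genes was lower in marrow, at 1770.2 to 1873 against 3387 to 3870 in spleen. Cd22 was the brightest of the 9 in spleen, at 379 in marrow and 1933 in spleen. Of the 9 genes 5 were lower in marrow and 2 higher (Vpreb1 and Rag1). That of 8 plasmacytoid genes was 3702 to 4818 against 3204 to 3738, with 1 of the 8 higher in marrow (Bst2) and 3 lower (Siglech, Ccr9 and Spib). Bst2 was the brightest of the 8, at 2536 in marrow and 1478 in spleen. The mean log2 intensity of the 8 genes was lower in marrow, at 7.81 to 7.96 against 8.06 to 8.24. The lowest single intensity was 44.8 in the B cell list and 70.7 in the plasmacytoid list, without detection calls to place them against background. The part of these cells in the Tlr9 difference was not tested.

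Tlr3, the receptor of double-stranded RNA, was lower in bone marrow. Intensity was 280.2, 384, 309 and 481 in bone marrow and 932, 864, 746 and 1247 in spleen. The groups did not overlap, and mouse 4 was the highest in both tissues. The geometric mean fell from 930.3 to 356, a 2.62-fold difference (log2 difference -1.39 ± 0.18 SE, 95% interval -1.77 to -1.01, n = 4 per group, limma adjusted p = 7.9e-05), and it fell in 4 of 4 mice, by 2.25-fold to 3.33-fold.

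Markers of the cDC1 subset, which expresses Tlr3, split in these arrays. The summed intensity of 8 cDC1 genes was 8366 to 9605 in bone marrow and 13193 to 14734 in spleen. Of the 8 genes 4 were lower in marrow (Xcr1, Cd8a, Itgae and Wdfy4), Cadm1 was higher, and Clec9a, Irf8 and Batf3 did not pass the threshold. In marrow the sum was 8366, 9040.4, 8993 and 9605 in mice 1 to 4, the same order of mice as for Tlr3. In spleen it was 14118, 14734, 13193 and 13385, another order, with mouse 4, highest in Tlr3, the second lowest. On the splenic array of mouse 4, Xcr1 and Clec9a were the highest of the 4 and Wdfy4 and Batf3 the lowest. The mean log2 intensity of the 8 genes in marrow was 9.08, 9.17, 9.21 and 9.24. That order differed from Tlr3, which was higher in mouse 2 than in mouse 3. In spleen the mean was 10.06, 10.14, 9.88 and 10.16. There it was lowest in mouse 3 and highest in mouse 4, as Tlr3 was. It was higher in mouse 2 than in mouse 1, however, the reverse of Tlr3. The lowest single intensity of the list was 58.8, without a detection call to place it against background. The part of the cDC1 share in the Tlr3 difference was not tested.

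Tlr12, a receptor of protozoan profilin, was slightly lower in bone marrow. Intensity was 143, 162, 147 and 162 in bone marrow and 198, 205, 171 and 188 in spleen. The highest marrow array lay just below the lowest splenic array. The difference was 1.24-fold (log2 difference -0.31 ± 0.08 SE, 95% interval -0.49 to -0.13, n = 4 per group, limma adjusted p = 0.021), with 4 of 4 mice lower in marrow. This call ended without bone marrow replicate 1 (adjusted p = 0.066) or 3 (0.062) and without spleen replicate 1 (0.061) or 2 (0.069). Without any detection call in the data, it is unknown whether Tlr12 lay above background on these arrays.

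Unc93b1, the chaperone shared by these receptors, was higher in bone marrow with the least spread of the 7 genes. Intensity was 4129, 4382, 4507 and 4455 in bone marrow and 3491, 3402, 3568 and 3356 in spleen. No array overlapped, and the SD on the log2 scale was 0.056 in marrow and 0.039 in spleen. The rise was 1.26-fold (log2 difference 0.34 ± 0.07 SE, 95% interval 0.18 to 0.49, n = 4 per group, limma adjusted p = 0.0042), from 1.18-fold in mouse 1 to 1.33-fold in mouse 4.

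**Figure D2:**
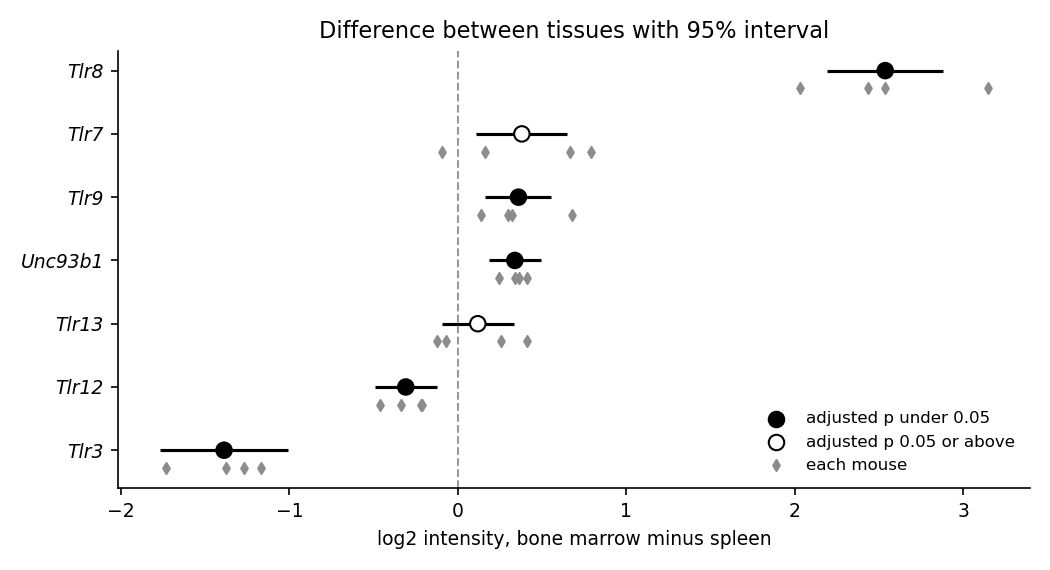
Difference in log2 intensity, bone marrow minus spleen, for the 7 measured genes. Large circles are limma estimates with 95% intervals, filled where the adjusted p is under 0.05, and small grey diamonds are the differences within each of the 4 mice. Tlr8 stands at 2.54 and Tlr3 at -1.39, and the other 5 genes lie between -0.31 and 0.38.

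Whether 2 genes shifted unequally between the tissues was tested on their log2 ratio on each array, for all 21 pairs of the 7 genes. An exact two-sided permutation test of 4 arrays against 4 was used, with Benjamini-Hochberg adjustment over the 21 pairs. The smallest p that this test can give is 0.0286, and 15 pairs reached it, with an adjusted p of 0.040 each. Tlr8 differed from all 6 others and Tlr3 from all 6 others. The log2 ratio of Tlr3 to Tlr8 went from 1.27 ± 0.38 (SD, n = 4) in spleen to -2.66 ± 0.45 in bone marrow, a change of -3.92 in the same direction in 4 of 4 mice. For the neighbours Tlr7 and Tlr8 the ratio of Tlr7 to Tlr8 went from 1.21 ± 0.40 to -0.95 ± 0.30.

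Ratios among Tlr7, Tlr9 and Unc93b1 did not pass. The ratio of Tlr7 to Tlr9 differed between tissues by 0.02 on the log2 scale (exact permutation p = 0.89, adjusted p = 0.89), with SDs of 0.17 in bone marrow and 0.11 in spleen. That of Tlr9 to Unc93b1 differed by 0.02 (exact permutation p = 0.74, adjusted p = 0.78), and that of Tlr7 to Unc93b1 by 0.04 (exact permutation p = 0.60, adjusted p = 0.66). These tests do not show that the genes shifted equally. Tlr12 fell relative to Tlr7, Tlr9, Tlr13 and Unc93b1, by 0.43 to 0.69 on the log2 scale, with an adjusted p of 0.040 each. The ratios of Tlr13 to Tlr7, Tlr9 and Unc93b1 did not pass, with adjusted p of 0.11, 0.075 and 0.13 from the exact permutation test.

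**Figure D3:**
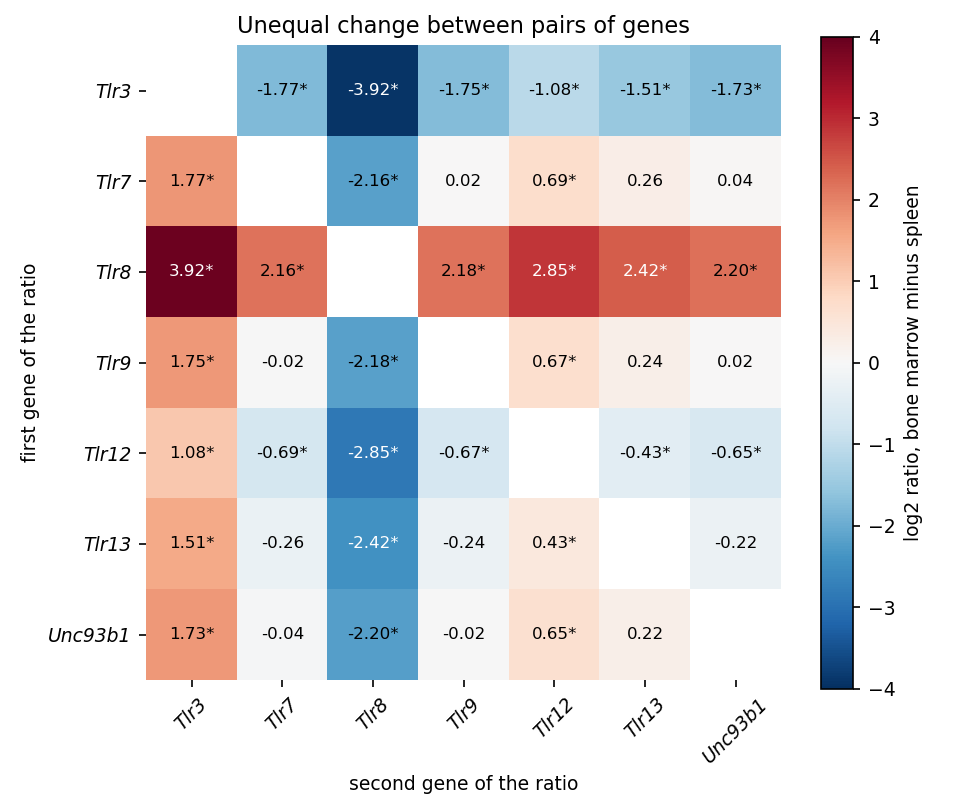
Change in the log2 ratio of each pair of genes, bone marrow minus spleen, with the gene of the row divided by the gene of the column. Asterisks mark an adjusted p under 0.05 over 21 pairs in the exact permutation test of 4 against 4 arrays. The Tlr8 row is positive against every other gene, from 2.16 against Tlr7 to 3.92 against Tlr3, and the Tlr3 row is negative throughout.

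The genes whose log2 intensity followed each member most closely over the 8 arrays were taken from the rest of the 19938 genes. For Tlr8 these were Dram2, P2rx7 and Atf3 (Pearson r of 0.997 each), and for Unc93b1 Heatr5a, Dhrs11 and Akr1b10 (r from 0.992 to 0.996). For Tlr9 they were Gbp7, Spice1 and Rgs14 (0.978 to 0.985), for Tlr7 Ostm1, Osbpl11 and Gzf1 (0.970 to 0.983), for Tlr12 Septin3, Aspm and Znhit2 (0.963 to 0.981), and for Tlr13 Ube2r2, Zcchc2 and Rpusd4 (0.925 to 0.945). For Tlr3 they were Hint3, Chil5 and Tmem18 (0.987 to 0.996). These values rest largely on the 2 tissues, so the deviations from the group means were compared as well. Hint3 was again the closest to Tlr3 (0.983), followed by Cldn20 (0.980) and Cxcr3 (0.979). The closest by deviations were Fam193a, Smndc1 and Abca8b for Tlr8 (0.971 to 0.977) and Ctnnd2, Lztr1 and Map4 for Tlr9 (0.970 to 0.979). They were Tdrd12, Msl3l2 and Plekhf1 for Tlr12 (0.948 to 0.982) and Dnmbp, Nckap1 and Mgat5 for Unc93b1 (0.970 to 0.990). With 8 arrays and so many genes, correlations of this size describe the arrays only.

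The genes that act with these receptors were read from 8 lists of 109 memberships, 97 of which had a value. Of these 34 were higher and 13 lower in bone marrow, and 50 did not pass. Over all genes, dim ones included, 9.26% were higher and 9.20% lower, shares that also stand beside the counts of each list below. The median log2 difference of the 97 genes was 0.09, against -0.0071 over all genes. The marrow arrays also held more of the monocyte, macrophage and neutrophil genes given above, and the part of those cells in the differences of these lists was not tested.

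Genes for folding, transport and cleavage of the receptors were higher or did not pass. Of 16 genes 9 were higher and none lower, with a median of 0.40. Hsp90b1, the chaperone gp96 that folds Toll-like receptors, was higher by 0.48 on the log2 scale, whereas the level of its co-chaperone Cnpy3 was 1344 in marrow cells and 1365 in splenic cells. Of the endosomal proteases that cut the receptors, Ctsk rose 4.22-fold, the asparagine endopeptidase Lgmn 2.97-fold (4924 against 1659, log2 difference 1.57 ± 0.11 SE, n = 4 per group, limma adjusted p = 2.8e-07), Ctsl 2.01-fold and Ctsb 1.96-fold. Cathepsins and Lgmn are also abundant in macrophages, whose markers rose in the same arrays. Ctsk was 67.3 to 110.5 in spleen, and without detection calls it is unknown whether such values lie above background.

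Genes that digest or deliver the ligands moved in both directions. Of 10 genes 6 were higher and 1 lower, with a median of 0.49. Pld3, an endolysosomal exonuclease that limits the supply of DNA and RNA to Tlr9 and Tlr7, was 951, 1731, 1060 and 601 in bone marrow and 287, 179, 235 and 207 in spleen. These arrays did not overlap, although the marrow arrays ranged widely, and the rise was 4.53-fold (log2 difference 2.18 ± 0.25 SE, n = 4 per group, limma adjusted p = 3.3e-05). Cd14, which helps deliver nucleic acids to the receptors, rose 4.71-fold, the progranulin gene Grn 1.67-fold and the lysosomal nuclease Dnase2a 1.60-fold. The secreted nuclease Dnase1l3, which clears DNA in microparticles, was the gene that fell, from 4547 in spleen to 306 in bone marrow.

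Neither of the adaptors Myd88 and Ticam1 passed the threshold. The level of Myd88 was 2905 in marrow cells and 2676 in splenic cells (log2 difference 0.12 ± 0.08 SE, n = 4 per group, limma adjusted p = 0.45). That of Ticam1, the adaptor of Tlr3, was 439 and 391 (0.17 ± 0.07, limma adjusted p = 0.14). Of 16 adaptors and kinases 3 were higher and 1 lower, with a median of 0.08. Irak3, a kinase-like protein that restrains Myd88 signalling, was 1472, 1530, 1418 and 1481 in bone marrow and 463, 289.9, 313 and 426 in spleen. It thus rose in every mouse, by 4.03-fold in the means (log2 difference 2.01 ± 0.13 SE, n = 4 per group, limma adjusted p = 2.6e-07). The kinase genes Ikbke and Irak2 were 2.08-fold and 1.45-fold higher, and Irak1 was 1.26-fold lower.

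Transcription factors below the receptors split. Of 9 measured 2 were higher and 3 lower, with a median of -0.06. Irf7 and Irf5, which Tlr7 and Tlr9 activate, were 1.62-fold and 1.21-fold higher, and Irf5 no longer passed with the mouse as a replicate block (adjusted p = 0.054) or without spleen replicate 2 (0.056). The NF-kB subunit genes Relb, Nfkb2 and Rel were lower. Relb fell from 1650 in spleen to 452 in bone marrow (log2 difference -1.87 ± 0.09 SE, n = 4 per group, limma adjusted p = 2.1e-08). The log2 differences of Nfkb2 and Rel were -0.59 and -0.43.

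Among genes listed as negative regulators, 3 of 12 were higher and 2 lower, with a median of -0.16. Whether each of them, Nfkbiz included, restrains signalling in these cells was not tested. Tnip3, which binds the deubiquitinase A20, rose 7.54-fold, from 101 in spleen to 765 in bone marrow. Its splenic arrays stood at 71.1 to 123.8, without detection calls to place them against background. Nfkbiz and Tnip2 were 1.33-fold and 1.24-fold higher, and Tnip2 no longer passed with any 1 of 5 arrays left out, marrow replicates 1 and 3 and spleen replicates 1, 2 and 4 (adjusted p 0.062 to 0.086). The deubiquitinase gene Cyld and the NF-kB inhibitor gene Nfkbia had log2 differences of -0.59 and -0.43.

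Cytokine products of the pathway were 4 higher and 4 lower of 14, with a median of -0.06. The chemokine genes Ccl3, Cxcl10 and Ccl4 were 1.88-fold, 1.87-fold and 1.44-fold higher, and the cytokine gene Il27 1.37-fold. The Ccl3 call ended without bone marrow replicate 4 (adjusted p = 0.072), spleen replicate 2 (0.056) or spleen replicate 4 (0.071). Ccl5, Il12b, Tnf and Il6 were 2.38-fold, 1.80-fold, 1.51-fold and 1.48-fold lower. In marrow and spleen, Il6 stood at 17.1 and 25.3 and Il12b at 101 and 183. Without detection calls it is unknown whether such values lie above background. Ifnb1, the interferon induced through Tlr3, did not pass, at 53.5 and 56.3.

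Receptors of the cell surface and cytosolic sensors were read for comparison. Of 9 surface receptors, co-receptors and their adaptors 5 were higher and none lower, with a median of 0.38. Among the 5 was the adaptor Tirap, 1.31-fold higher (limma adjusted p = 0.0070). Tlr4, the receptor of lipopolysaccharide, rose 3.94-fold, its co-receptor Ly96 2.05-fold, Tlr2 1.92-fold and Ly86 1.41-fold. In spleen Tlr4 was 65.0 to 87.4 and Ly96 37.8 to 93.1, and in marrow Ly96 was 109 to 197. Without detection calls it is unknown whether such values lie above background. Of 11 cytosolic sensors of nucleic acids 2 were higher and 2 lower, with a median of 0.06. Mavs, the adaptor of the RIG-I-like receptors, and the nucleic acid sensor Zbp1 were 1.77-fold and 1.55-fold higher, and the DNA sensor Aim2 and the adaptor Sting1 were 1.28-fold and 1.22-fold lower. Without bone marrow replicate 1 or 3, or without spleen replicate 4, only 2 of the 11 were called. The Aim2 call ended with any of 5 arrays left out, marrow replicates 1, 2 and 3 and spleen replicates 3 and 4 (adjusted p from 0.054 to 0.080). The Sting1 call ended with any of 6 left out, marrow replicates 1 and 3 and each spleen replicate (0.064 to 0.11), after median centring (0.091) and with the replicate block (0.072).

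**Figure D4:**
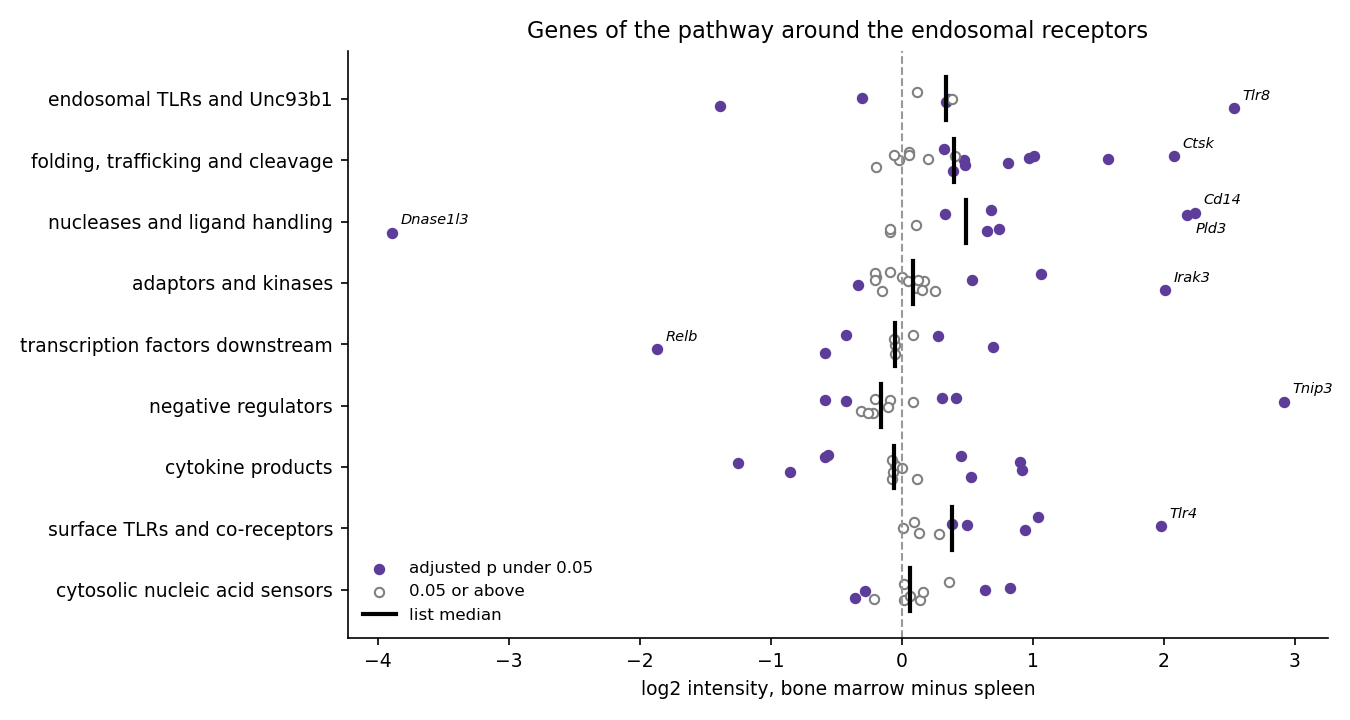
Difference in log2 intensity, bone marrow minus spleen, for every measured gene of the endosomal receptors and of 8 lists of genes around them. Each circle is a gene, filled where its limma adjusted p is under 0.05, vertical bars are list medians, and vertical scatter within a list carries no value. The folding and transport list has 9 of 16 genes higher and none lower, and Dnase1l3 stands furthest to the left at -3.89.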

How the data were processed

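The deposited table holds 1 linear intensity per probe set and array, made by the authors (the submitters' processing notes name Affymetrix Expression Console 1.4). How background was corrected and arrays were normalized, not given in the sources used here, could change the values, and no detection calls were used. Of 35556 probe sets, 21789 had exactly 1 gene symbol in the platform annotation, 1621 had several and 12146 were not listed. The brightest probe set per gene was kept, which gave 19938 genes. After log2 conversion, limma 3.58.1 (R 4.3.3; lmFit and eBayes without a filter) compared the tissues as bone marrow minus spleen, with Benjamini-Hochberg adjustment over all genes at 0.05. Levels are geometric means, and the number of arrays limits the precision. The script was tested on simulated data.

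Same-numbered arrays came from 1 mouse, per the description labels, so the numbers pair the arrays. Their deviations from the group means correlated at 0.096, -0.088, -0.18 and -0.054 over genes. The labels identify the mouse but state no test or model, so the mouse was not in the fit, and blocking on it was an alternative. P-values measure the spread between mice together with that of sorting and amplification from very small RNA amounts.

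The gene family was given by name, and it and the lists were chosen with earlier results of these data known. Named genes are the receptors and Unc93b1, up to 4 genes per list and direction with the largest change past the threshold, and the 3 genes most like each member. Hsp90b1, Cnpy3, Myd88, Ticam1, Tirap, Ifnb1 and the marker genes were named after their values were seen. List genes without a value included Rnaset2a, Rnaset2b, Irak4, Traf3, Chuk, Tasl, Nfkb1, Il1rl1, Ifnl3, Tlr5 and Ifi204. Alternatives were quantile normalization, median centring, leaving out the dimmest 40% of genes, averaging probe sets, an intensity trend, array weights, the replicate block and leaving out each array.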

Additional observations from a re-analysis of the deposited data

Results flagged for a closer look

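Within each tissue, the 6 measured receptors, Unc93b1 and the named genes around them were checked for an array far from the other 3, by the gap to its nearest neighbour over the whole range. Of 92 sets of 4 arrays, 2 exceeded the 95% critical value of Dixon's test, where chance marks about 1 in 20, and none of the 14 sets of the receptors and Unc93b1 did. Grn in spleen (ratio 0.873) was 4220 in mouse 1 and 3870 to 3920 in the others. Ccl5 in bone marrow (ratio 0.844) was 623 in mouse 4 and 419 to 446 in the others.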

How the results depend on the processing

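The log2 differences of the 6 measured receptors and Unc93b1 kept their sign under every alternative. Averaging probe sets, leaving out dim genes, the intensity trend and the replicate block left these differences unchanged, so the sign could not change there. Tlr3, Tlr8, Tlr9 and Unc93b1 passed the threshold in every alternative and Tlr13 in none. Tlr7 came to pass at 0.38 after quantile normalization, with the dimmest genes left out and with an intensity trend. With 1 array left out it ran from 0.31 to 0.47, and Tlr12 from -0.36 to -0.27. The number of the 7 that passed was 4 to 6 with 1 array left out. The replicate block kept the same number, 5, and changed 2 calls among named genes, Irf5 and Sting1. With 1 array left out, 3145 to 3501 of all genes passed, 2 to 4 of the cytosolic sensors, and 13 to 17 of the 21 pairs. A sign-flip test over 4 mice cannot reach 0.05 and was not run. With no detection calls, how far dim genes are compressed toward 0 is unknown.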
